A study of Mus musculus with 24 samples.

Results

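The enzymes that write, maintain and erase cytosine methylation were followed in the dermal papilla (DP), the cluster of specialised fibroblasts at the base of the hair follicle that signals to the hair-forming epithelium. The group was defined by gene name and holds 7 of the 25755 genes in the files, Dnmt1, Uhrf1, Dnmt3a, Dnmt3b, Tet1, Tet2 and Tet3, and all 7 had a mean of at least 10 normalized reads. Normalized reads are the read counts of a library divided by its DESeq2 size factor. The deposited factors equalled, for 24 of 24 libraries within 0.001 of their value, those recomputed by the median of ratios over all the libraries together, so that values can be set side by side across ages. Each library came from sorted DP cells of an individual mouse, with 3 control and 3 dM1/2 mice at P20 (telogen, the resting phase), P24 and P28 (anagen, the growth phase) and P60 (the following telogen).

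Every mouse, control or mutant, carried the Corin-Cre transgene (Cor-cre/+), which is active in the DP after birth, and a YFP reporter at ROSA26 by which the cells were sorted. In dM1/2 both Hdac1 and Hdac2, which encode histone deacetylases, were homozygous for floxed alleles. The controls were any of several combinations with at least a single unfloxed allele of Hdac1 or Hdac2, including Hdac1Flox/Flox with heterozygous Hdac2, and the labels do not say which combination a library had. The floxed lines were on C57BL/6J and the Cre line on FVB. The methods give females for P20, males for anagen and mice of both sexes for P60. All 12 telogen libraries, those of P60 included, had more Xist than Y-linked reads and all 12 anagen libraries had the reverse, so that in these libraries hair-cycle stage, sex and depth changed together, with 8171944 to 13369732 reads on genes per library at P20 and P60 and 35469841 to 49331751 at P24 and P28. Hdac1 was at 674.7, 668.2 and 668.5 normalized reads in the P24 controls and at 209.0, 187.8 and 116.0 in dM1/2. At P28 the controls had 213.6, 529.0 and 104.7, so that the library labelled P28 control 3 lay below all 3 dM1/2 libraries (190.2, 148.7 and 125.7). Hdac2 was not lower in dM1/2 at either anagen age. At P24 it was at 924.7 to 1068.6 in controls and higher, at 1157.3 to 1281.7, in dM1/2 (adjusted p = 0.117, limma). In telogen the Hdac2 groups overlapped. Reads were counted over whole genes, outside the deleted exons too, and the part of this in the Hdac2 values was not tested. In telogen Hdac1 was at 375.0, 511.3 and 504.8 in P20 controls and at 216.0, 369.6 and 270.0 in dM1/2, without overlap but not past the threshold (log2 fold change -0.72, adjusted p = 0.122, limma). At P60 the controls had 505.9, 359.9 and 375.8 and dM1/2 had 371.1, 347.0 and 317.7, which overlapped (-0.25, adjusted p = 0.986, limma), so that a loss of the Hdac1 transcript was not detected in the P60 dM1/2 libraries.

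The sort was checked against markers of the cells it could hold. All 10 DP markers had reads in all 24 libraries, and their summed level in controls was between 143240 and 421715 normalized reads in anagen and between 13459 and 26562 in telogen. The 11 keratinocyte markers summed to at most 800 normalized reads in any library. The inner root sheath keratin Krt27 and the hair-shaft keratin Krt35 had no read in 18 and 15 of the 24 libraries. Krt5, Krt10, Krt15 and Trp63 had reads in all 24, and Trp63 reached a mean of 371 normalized reads in P60 dM1/2. The 6 markers of dermal sheath and smooth muscle were far higher. They summed to 8424 to 11268 in P20 controls, where the DP markers summed to 24846 to 26562. In P60 controls the sums were 10509 to 11185, against 13459 to 18071 for the DP markers. In bulk RNA, fewer cells of a type and less RNA per cell cannot be told apart.

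Dnmt1 is the maintenance methyltransferase, which copies methylation onto the newly made strand after replication. Uhrf1 reads hemimethylated DNA and brings Dnmt1 to it, and the transcripts of both genes are known to rise in S phase. Dnmt3a and Dnmt3b place methylation at sites that had none, and Tet1, Tet2 and Tet3 oxidise methylcytosine to hydroxymethylcytosine, a first step in its removal. Transcript levels, not methylation itself, were measured here.

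On GRCm38 (GENCODE M21), Dnmt1 (ENSMUSG00000004099) lies on chr9:20907209-20959888 on the minus strand and Uhrf1 (ENSMUSG00000001228) on chr17:56303321-56323486 on the plus strand. Dnmt3a (ENSMUSG00000020661) is on chr12:3806007-3914443 and Dnmt3b (ENSMUSG00000027478) on chr2:153649450-153687730, both on the plus strand. Tet1 (ENSMUSG00000047146) is on chr10:62804570-62908996, Tet2 (ENSMUSG00000040943) on chr3:133463679-133545139 and Tet3 (ENSMUSG00000034832) on chr6:83362373-83459084, all on the minus strand.

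Since Dnmt1 and Uhrf1 are the members whose levels differed between genotypes, their start-site sequences are shown. RefSeq windows of 300 bases (GRCm38.p6, 250 bases before a start and 50 after it) were searched on both strands for the E2F motifs TTTCCCGC, TTTCGCGC, TTTGCCGC and TTTGGCGC. Among the 12 windows of the 7 genes, matches were in a single window of Dnmt1 and a single window of Uhrf1, and none of the windows of Dnmt3a, Dnmt3b or the Tet genes held these letters. Over all 32851 windows, 2.26% held a match. Capitals mark the match, the first Dnmt1 match being on the strand opposite to the gene, at -219 and +34 from the start site of Dnmt1 and at -185 from that of Uhrf1. The Dnmt1 matches fall in annotated exons and the Uhrf1 match does not.
Dnmt1 chr9:20952824-20952853 (minus strand): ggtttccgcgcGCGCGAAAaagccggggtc
Dnmt1 chr9:20952574-20952601 (minus strand): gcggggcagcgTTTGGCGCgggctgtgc
Uhrf1 chr17:56304068-56304195 (plus strand): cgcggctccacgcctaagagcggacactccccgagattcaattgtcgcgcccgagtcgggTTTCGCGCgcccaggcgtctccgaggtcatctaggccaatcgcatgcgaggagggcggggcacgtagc
Of 20 S-phase and proliferation genes, 16 were in the RefSeq table, and 6 of these (37.5%) held a match, against 2.60% of all 27025 symbols. A match describes the letters of the window and not binding. Every motif searched holds a CG, and the share of matches among windows of like CG content was not computed. The window of Uhrf1 shown above held 33 CG dinucleotides and that of Dnmt1 also 33, while Tet2 had 57 and the median over all windows was 7.

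Averaged over the ages, the de novo enzyme Dnmt3a had the highest level of the 7 transcripts in control DP. Per kilobase of exon, the mean over the 12 control libraries was 146 ± 35.4 normalized reads for Dnmt3a, 118 ± 16.3 for Tet3 and 116 ± 29.5 for Dnmt1 (SD, n = 12). Tet2 followed with 97.7 ± 39.5, Tet1 with 71.9 ± 24.6, Uhrf1 with 41.4 ± 37.8 and Dnmt3b with 17.6 ± 4.20 (SD, n = 12). The ranges of all neighbours in this order overlapped, and scaling the recovered reads with TMM gave the same order. It did not hold at every age. In P24 controls the means were 158.7 for Dnmt1 and 158.2 for Dnmt3a. In P60 controls Tet3 (114.3) and Dnmt1 (98.9) were above Dnmt3a (95.6). Relative to its mean, Uhrf1 had the widest spread, from 4.48 to 115 normalized reads per kilobase. Dnmt3b had the lowest mean, with 21 to 393 reads per library over all groups.

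Uhrf1 was the member with the largest difference between genotypes, and of the 4 ages it passed the test at P24 and P28. At P24 its normalized reads were 277.0, 237.0 and 491.0 in controls and 1590.1, 1112.1 and 1493.1 in dM1/2. At P28 they were 87.9, 69.2 and 75.1 in controls and 817.5, 961.6 and 981.6 in dM1/2. Every dM1/2 library was above every control library at both ages. The log2 fold change, on the scale of log2(normalized reads + 1) as for all genes here, was 2.11 at P24 (4.33-fold, 95% confidence interval 2.77 to 6.78, adjusted p = 0.00263, limma) and 3.56 at P28 (11.8-fold, 9.09 to 15.2, adjusted p = 0.000161, limma).

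In telogen the Uhrf1 groups were close or overlapped. At P20 the controls had 56.2, 389.6 and 327.0 normalized reads and dM1/2 had 79.6, 252.3 and 312.6, so that a single library in each genotype was far below the other two. The log2 fold change was -0.07 with an interval of -1.68 to 1.55 (adjusted p = 0.969, limma). At P60 the values were lower, 42.0, 19.1 and 43.8 in controls and 50.5, 67.9 and 84.7 in dM1/2, and the groups did not overlap. This log2 difference of 0.99 (0.02 to 1.96) was not called (adjusted p = 0.986, limma), and the lowest value there stood for 8 reads.

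Dnmt1 rose at the same ages, with smaller fitted folds. At P24 controls had 1108.8, 1051.3 and 1352.5 normalized reads and dM1/2 had 2460.3, 2026.1 and 2264.5. At P28 the controls had 698.6, 644.3 and 914.7 and dM1/2 had 1699.8, 1701.6 and 1764.0. The genotypes did not overlap at either age, and the 3 dM1/2 libraries of P28 differed little among themselves (1722 ± 36.6, SD, n = 3). The rise was 1.93-fold at P24 (1.54 to 2.41, adjusted p = 0.0036, limma) and 2.31-fold at P28 (1.8 to 2.97, adjusted p = 0.00159, limma).

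At P20 Dnmt1 was at 664.2, 892.8 and 757.2 in controls and at 882.3, 953.9 and 1170.7 in dM1/2, which overlapped (0.38 on the log2 scale, adjusted p = 0.216, limma). At P60 it was at 770.3, 698.3 and 719.3 in controls and at 734.7, 993.2 and 851.9 in dM1/2 (0.23 on the log2 scale, adjusted p = 0.986 with limma). Telogen dM1/2 libraries thus spanned 734.7 to 1170.7 normalized reads and anagen dM1/2 libraries 1699.8 to 2460.3, with no overlap.

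Counted over the members, 2 of 7 rose at P24 and 2 of 7 at P28, and none fell. Over all genes tested, 14.8% rose and 11.8% fell at P24, and 20.0% rose and 15.6% fell at P28. No member was called at P20, where 0.433% of genes were called in either direction, or at P60, where 0% were. The count over all genes at P20 depended on the setting, with 60 genes by limma, 78 by edgeR, 668 by DESeq2, none without P20 dM1/2 3 and 1530 (11.1%) without P20 control 1, and no member was called in any of these. At P60 limma called 0 of 14042 genes, with 525 at an unadjusted p under 0.05, while edgeR called 0 and DESeq2 26. Dnmt1 and Uhrf1 were called at P24 and P28 with edgeR, with DESeq2 and without any single library, including the library labelled P28 control 3. The plots of the members by library and of their changes show these values side by side.

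**Figure D1:**
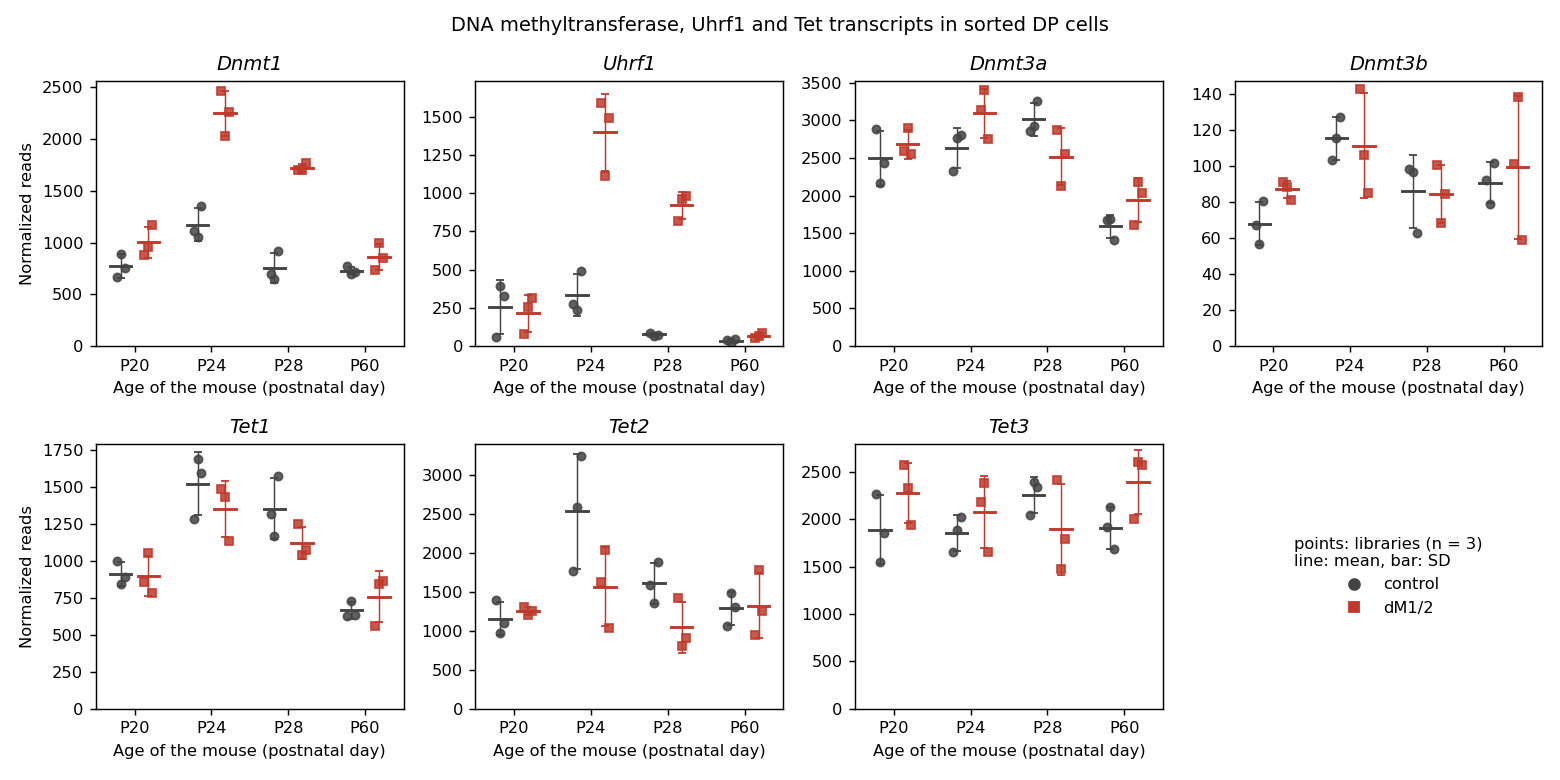
Normalized reads (linear axis from 0) of the 7 genes by postnatal age, for control (circles) and dM1/2 (squares). Each point is a library, the line is the mean and the bar the SD of 3 libraries. Uhrf1 and Dnmt1 separate by genotype at P24 and P28, where the lowest dM1/2 values are 817.5 and 1699.8 and the highest control values 491.0 and 1352.5.

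**Figure D2:**
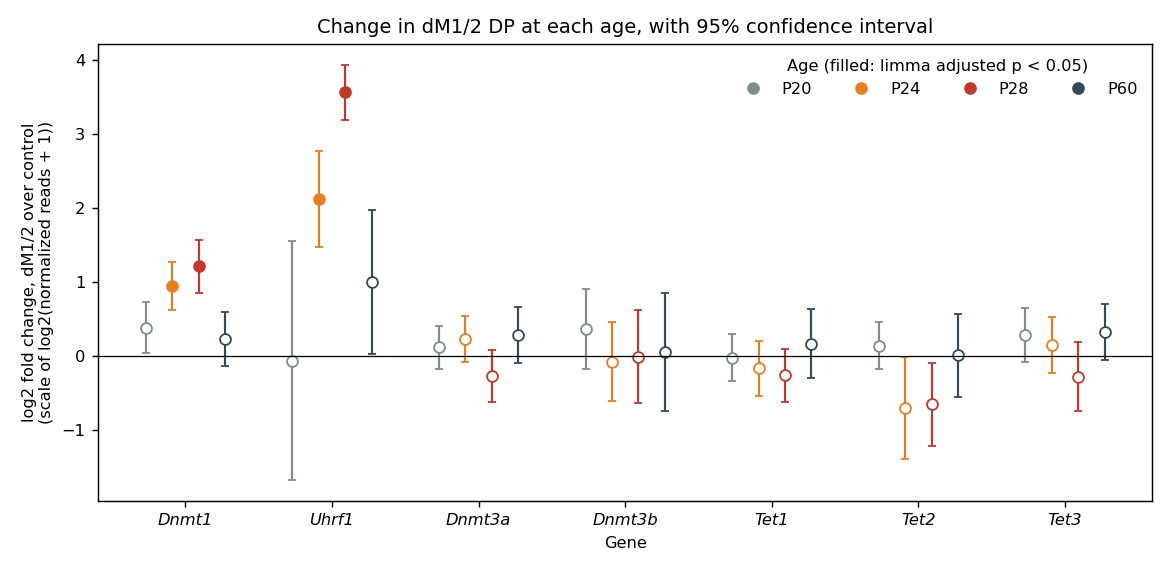
The log2 fold change of dM1/2 over control (vertical axis, scale of log2(normalized reads + 1)) for each gene and age, with its 95% confidence interval from limma on 3 against 3 libraries. Filled points passed an adjusted p of 0.05, which Dnmt1 and Uhrf1 did at P24 and P28 and no other point did.

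The de novo enzymes did not pass the threshold between genotypes at any age. Dnmt3a was at 2332.6, 2759.3 and 2805.3 normalized reads in P24 controls and 3132.3, 3400.5 and 2750.4 in dM1/2, and at P28 at 2854.3, 2925.5 and 3260.3 in controls and 2871.6, 2120.7 and 2557.7 in dM1/2. Both pairs of groups overlapped, with dM1/2 higher on average at P24 (log2 fold change 0.23, -0.08 to 0.54, adjusted p = 0.24, limma) and lower at P28 (-0.27, -0.62 to 0.08, adjusted p = 0.202, limma). At P20 and P60 the log2 fold changes of Dnmt3a were 0.11 and 0.28 (adjusted p = 0.655 and 0.986, limma).

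Dnmt3b had between 56.8 and 142.8 normalized reads in the 24 libraries. In P24 it was at 103.3, 115.5 and 127.0 in controls and 142.8, 106.3 and 84.9 in dM1/2, and in P28 at 98.3, 96.7 and 62.6 in controls and 100.6, 68.6 and 84.3 in dM1/2. These groups overlapped, with log2 fold changes of -0.08 (-0.61 to 0.46) and -0.01 (-0.64 to 0.62), intervals that leave room for a modest change in either direction. At P20 alone the groups did not overlap, with 67.0, 56.8 and 80.3 in controls and 91.0, 88.5 and 81.4 in dM1/2, and the log2 fold change of 0.36 was not called (adjusted p = 0.421, limma).

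None of the 3 Tet genes passed the threshold between genotypes at any age. Tet2 came closest, with 1766.6, 2592.1 and 3246.0 normalized reads in P24 controls and 1629.0, 2045.1 and 1034.5 in dM1/2. At P28 it was at 1588.9, 1362.9 and 1884.8 in controls and 1423.4, 810.3 and 906.5 in dM1/2. A single dM1/2 library reached into the control range at each age. The log2 fold changes were -0.70 (-1.39 to -0.01, adjusted p = 0.121, limma) and -0.65 (-1.21 to -0.10, adjusted p = 0.0705, limma), and without P28 dM1/2 1 the difference at P28 passed (adjusted p = 0.0184, limma). In telogen, Tet2 was at 976.6 to 1392.7 in P20 controls against 1210.6 to 1305.2 in dM1/2, and at 1068.4 to 1484.8 in P60 controls against 946.7 to 1780.2 in dM1/2.

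Tet1 lay between 1281.0 and 1687.4 normalized reads in P24 controls and between 1134.9 and 1483.6 in dM1/2, and at P28 between 1165.6 and 1576.5 in controls and between 1038.7 and 1246.9 in dM1/2. Its log2 fold changes at P20, P24, P28 and P60 were -0.03, -0.17, -0.26 and 0.16 (adjusted p = 0.93, 0.464, 0.213 and 0.986, limma). Tet3 had log2 fold changes of 0.28, 0.15, -0.28 and 0.32 at the same ages (adjusted p = 0.366, 0.547, 0.307 and 0.986, limma), and its 24 values stayed between 1472.0 and 2597.3 normalized reads.

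Whether the effect of genotype itself differed between the stages was tested over the 24 libraries. It did for Uhrf1, with an anagen effect larger than the telogen effect by 2.37 on the log2 scale (1.21 to 3.53, adjusted p = 0.00328, limma), and for Dnmt1, by 0.78 (0.46 to 1.09, adjusted p = 0.000764, limma). For Tet2 the effect in anagen was the lower, with a difference of -0.75 (-1.31 to -0.18, adjusted p = 0.042, limma). This Tet2 call was lost with edgeR (adjusted p = 0.0564), without a filter on low values (adjusted p = 0.058) and in 16 of 24 fits that each left out a library. Dnmt3a, Dnmt3b, Tet1 and Tet3 had differences of -0.22, -0.25, -0.28 and -0.36 that did not pass (adjusted p = 0.274, 0.53, 0.223 and 0.146, limma). Of all genes, 16.1% had a difference in the higher direction and 14.1% in the lower. The difference for Hdac1 itself was -0.81 (adjusted p = 0.109, limma), and at P60 its transcript was not detectably lower in dM1/2. Between P24 and P28 no member's effect differed past the threshold (0.707% of all genes did), and Uhrf1 had a difference of 1.44 (0.69 to 2.20, adjusted p = 0.0904, limma) that DESeq2 called (adjusted p = 0.00501).

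Within controls, averaged over the ages of each stage, Tet1, Tet2, Dnmt3a and Dnmt1 were higher in anagen than in telogen. That is 4 of 7 members, where 23.8% of all genes were higher. Tet1 ranged from 1165.6 to 1687.4 normalized reads in the 6 anagen controls and from 627.6 to 1001.7 in the 6 telogen controls, without overlap, a 1.83-fold difference (1.57 to 2.15, adjusted p = 0.000104, limma). The difference was 1.64-fold for Tet2 (adjusted p = 0.00433, limma), 1.42-fold for Dnmt3a (adjusted p = 0.00178, limma) and 1.25-fold for Dnmt1 (adjusted p = 0.0396, limma). The ages of a stage were not alike. Mean Dnmt1 was 1170.9 normalized reads at P24 but 752.5 at P28, against 771.4 at P20 and 729.3 at P60. Mean Dnmt3a was 2632.4 at P24 and 3013.4 at P28, against 2493.7 at P20 and 1590.3 at P60. The P20 and P24 ranges of Dnmt3a overlapped, as did those of Tet2 at P28 with P20 and P60. The Dnmt1 call was lost in 9 of 12 fits that each left out a library, with adjusted p-values of 0.0515 to 0.0883, and held without P20 control 2, P24 control 2 or P28 control 2. By Xist and Y-linked reads all anagen libraries were male and all telogen libraries female, and the telogen libraries were shallower, so that stage, sex and depth cannot be told apart here, and all 10 DP markers were higher in anagen as well. Dnmt3b, Uhrf1 and Tet3 had log2 differences of 0.33, 0.96 and 0.12 that did not pass (adjusted p = 0.12, 0.0948 and 0.404, limma).

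The 2 anagen ages share sex and depth. From P24 to P28 in controls, Uhrf1 was lower by 2.03 on the log2 scale (log2 fold change -2.03, adjusted p = 0.0384, limma), 1 of 7 members where 0.738% of genes were lower, and the groups did not overlap. The call was lost in each of the 6 fits that left out a library (adjusted p = 0.0689 to 0.121, limma). In dM1/2 none of the members passed (2.67% of genes did), although all 3 values of Uhrf1 and of Dnmt1 were lower at P28, with log2 fold changes of -0.59 (adjusted p = 0.0941, limma) and -0.38 (adjusted p = 0.127, limma). In controls, Dnmt1 differed by -0.65 on the log2 scale (adjusted p = 0.123, limma).

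Between the telogens of P20 and P60 in controls, Uhrf1 and Dnmt3a were lower at P60, 2 of 7 members where 6.45% of genes were lower. Dnmt3a was at 2884.6, 2161.6 and 2435.0 normalized reads at P20 and at 1677.1, 1685.0 and 1408.7 at P60, without overlap (log2 fold change -0.64, adjusted p = 0.0219, limma). This call was lost without P20 control 3, P60 control 2 or P60 control 3 (adjusted p = 0.0557 to 0.0888, limma). Uhrf1 differed by -2.52 on the log2 scale (adjusted p = 0.0354, limma), which was lost in 5 of 6 fits that each left out a library and held without P20 control 1, the library with 56.2. Tet1 was just outside the threshold (log2 fold change -0.45, adjusted p = 0.057, limma) and passed with edgeR (-0.47, adjusted p = 0.0416). In dM1/2 no member passed (6.32% of genes did).

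Genes of DNA replication rose in the same comparisons as Uhrf1 and Dnmt1. Of the 20 S-phase and proliferation genes, 19 rose at P24 and 19 at P28, none fell, and their median log2 fold changes were 1.64 and 2.81, against -0.01 and 0.00 over all genes tested. The exceptions were Mcm4 at P24 (log2 fold change 0.66, adjusted p = 0.108, limma) and E2f1 at P28 (1.63, adjusted p = 0.0989, limma). Without the library labelled P28 control 3, 19 again rose at P28. The rises were led at P28 by Chaf1b (log2 fold change 3.98, adjusted p = 0.00042), a histone chaperone subunit at replication forks, Top2a (3.47, adjusted p = 0.000191), a topoisomerase, Mcm5 (3.30, adjusted p = 0.000323), of the replicative helicase, and Rrm2 (3.27, adjusted p = 0.000411), of ribonucleotide reductase (limma). At P24 they were led by Chaf1b (2.53, adjusted p = 0.0013), Rrm2 (2.36, adjusted p = 0.00167), Ccne1 (2.35, adjusted p = 0.00139), which drives entry into S phase, and Cdc6 (2.02, adjusted p = 0.00483), which loads the helicase (limma).

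The summed level of these 20 genes was 5614 to 10892 normalized reads in P24 controls and 17604 to 23565 in dM1/2, and at P28 2512 to 3226 in controls and 13724 to 16874 in dM1/2. P20 control 1, with the lowest Uhrf1 of its age, also had the lowest sum of its age, 2919 against 6818 and 8917 in the other P20 controls. P20 dM1/2 1, with Uhrf1 at 79.6, was low as well, at 3365 against 5608 and 6886 in the other P20 dM1/2 libraries. The higher P20 sums of both genotypes lay near those of P24 controls and above those of P28 controls. Over the 24 libraries Pearson's r between log2 values and the summed list was 0.97 for Uhrf1 and 0.93 for Dnmt1, and between -0.35 and 0.42 for the other five members. These libraries share genotype, age and depth classes, so that r is a description only. The part of cell division in the rise of Uhrf1 and Dnmt1 was not tested.

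Set against the summed list, Uhrf1 and Dnmt1 differed. Uhrf1 amounted to 41.9, 42.2 and 45.1 per 1000 reads of the list in P24 controls and to 67.5, 63.2 and 64.1 in dM1/2, and at P28 to 31.5, 21.4 and 29.9 in controls and 59.6, 64.2 and 58.2 in dM1/2. Its ratio was thus higher in every dM1/2 library than in every control of its age at P24 and P28. The same held at P60, with 6.58 to 14.3 in controls and 14.8 to 24.4 in dM1/2, so that it was not particular to anagen. At P20 the ranges overlapped, with 19.3 to 48.0 in controls and 23.6 to 45.4 in dM1/2. Among the controls alone the ratio ran from 6.58 to 48.0. Dnmt1 amounted to 124 to 187 per 1000 in P24 controls and 97.2 to 115 in dM1/2, and at P28 to 199.7 to 364 in controls and 105 to 124 in dM1/2, lower in every dM1/2 library. In telogen its ranges overlapped. At P20 they were 100 to 228 in controls and 170 to 262 in dM1/2, and at P60 235 to 258 and 215 to 307.

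**Figure D3:**
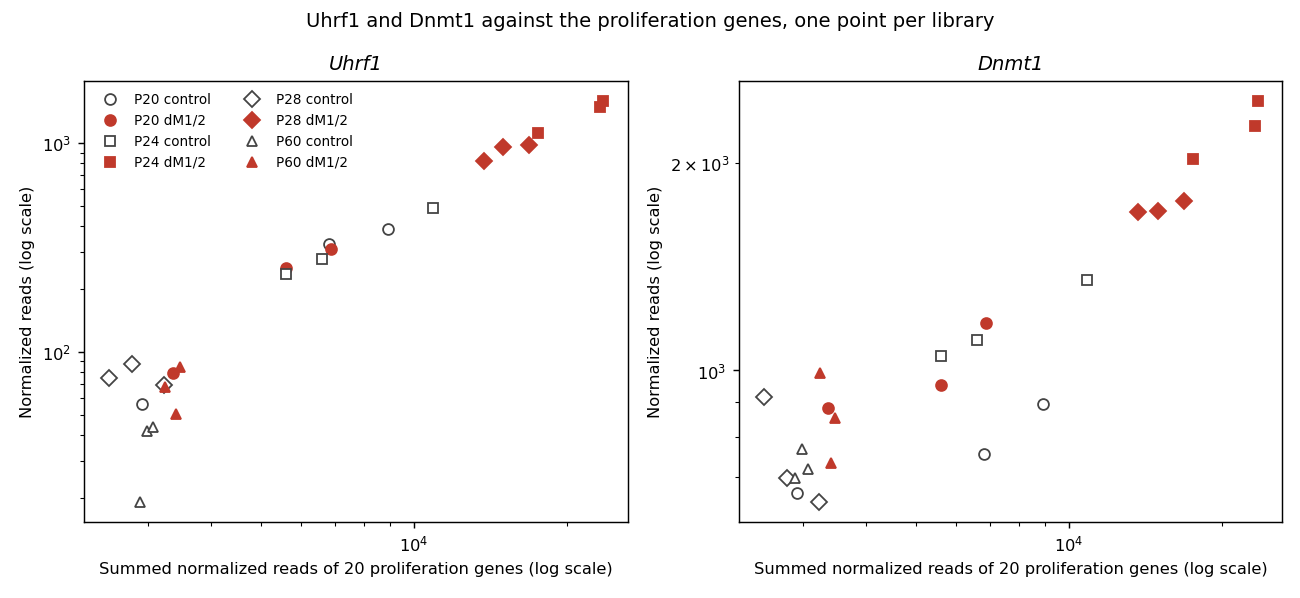
Normalized reads of Uhrf1 (left) and Dnmt1 (right) against the summed normalized reads of the 20 S-phase and proliferation genes, on log axes, with 1 point per library. Open symbols are controls and filled symbols dM1/2, and the shape gives the age. The anagen dM1/2 libraries, with sums of 13724 to 23565, lie at the upper right of both panels.

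Across the 24 libraries, the genes closest to each member (highest Pearson's r of log2(normalized reads + 1), among 13405 genes with a mean of at least 10 and no predicted model) were as follows. Uhrf1 was closest to Hist1h1b (r = 0.983), Stmn1 (0.982) and Foxm1 (0.980), and Dnmt1 to Cenpi (0.966), Hdac6 (0.963) and Fbxo5 (0.958). Dnmt3a was closest to Entpd7 (0.888), Armcx4 (0.872) and Daam2 (0.871), and Dnmt3b to Mier2 (0.749), Trmt1l (0.715) and Snrnp48 (0.709). Tet1 was closest to Sptbn4 (0.934), Sdk2 (0.926) and Mdga1 (0.922). Tet2 was close to Hdac4 (0.911) and Zdhhc21 (0.904), and Tet3 closest to Macf1 (0.863), Aak1 (0.825) and Zfp704 (0.822). Between members, r was 0.90 for Dnmt1 with Uhrf1 and 0.84 for Dnmt3a with Tet1, and 0.64 or less for every other pair.

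Among 12 partners of the methyltransferases, 3 rose and 0 fell at P24, and 5 rose and 1 fell at P28, with median log2 fold changes of 0.17 and 0.44. That is 25.0% higher at P24, where 14.8% of all genes were, and 41.7% higher and 8.33% lower at P28, against 20.0% and 15.6% of all genes. Cdca7, which recruits the remodeller Hells to chromatin, was at 85.1, 100.4 and 91.3 normalized reads in P24 controls and 343.1, 267.4 and 350.4 in dM1/2. Hells, needed for methylation of repeats, was at 139.7, 164.7 and 322.7 in P24 controls and 603.3, 514.1 and 547.2 in dM1/2. For both genes all dM1/2 libraries were above all controls. The log2 fold changes were 1.78 at P24 and 2.97 at P28 for Cdca7 (adjusted p = 0.00135 and 0.000404, limma) and 1.50 and 2.36 for Hells (adjusted p = 0.01 and 0.000306, limma).

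Pcna, the sliding clamp at replication forks to which Dnmt1 binds, also rose at both ages (log2 fold changes 0.70 and 0.86, adjusted p = 0.0238 and 0.00303, limma). Zfp57, which keeps methylation at imprinted loci, was at 26.5, 25.6 and 22.0 in P28 controls and at 185.5, 77.6 and 61.8 in dM1/2 (log2 fold change 1.92, adjusted p = 0.0133, limma), and at P24 its log2 fold change was 0.97 (adjusted p = 0.0986, limma). Trim28, the co-repressor that Zfp57 recruits, rose at P28 by 0.49 (adjusted p = 0.0307), and the histone methyltransferase gene Nsd1 was the member of the list that fell (-0.78, adjusted p = 0.00865, limma). These last names were picked after their values were seen.

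Among 8 genes for proteins that read methylated CpG, 0 rose at either age, 2 fell at P24 and 3 at P28. The genes that fell were 25.0% and 37.5% of the list, against 11.8% and 15.6% of all genes. Zbtb4, a zinc-finger reader, was at 2003.0, 2188.5 and 1714.9 normalized reads in P24 controls and 1031.9, 1069.4 and 857.6 in dM1/2, and at P28 at 2325.3, 2349.8 and 3266.7 in controls and 966.7, 828.3 and 923.8 in dM1/2. No dM1/2 library reached a control of its age. Its log2 fold changes were -1.0 and -1.53 (adjusted p = 0.00328 and 0.000948, limma). The related reader Zbtb38 also fell at both ages (-0.55 and -1.0, adjusted p = 0.0379 and 0.0184, limma), and Zbtb33 fell at P28 (-0.38, adjusted p = 0.041, limma). The median log2 fold change of the list was 0.05 at P24 and -0.36 at P28, and without the library labelled P28 control 3 the genes lower at P28 were 2.

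**Figure D4:**
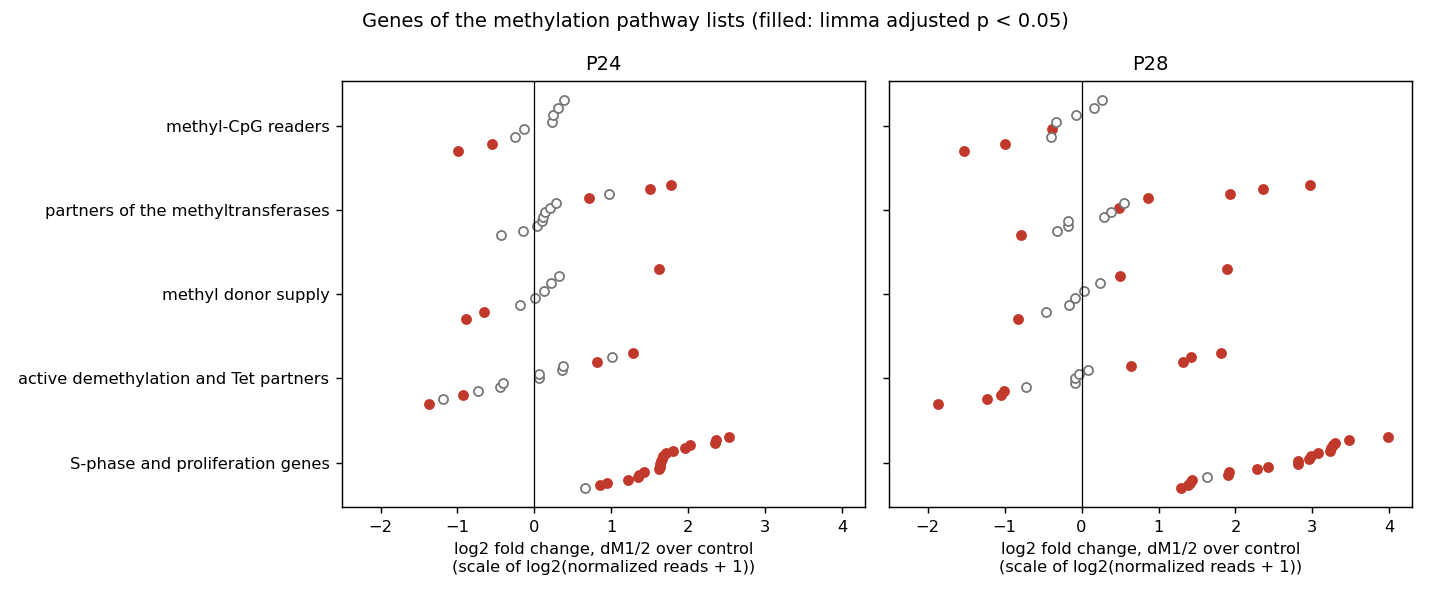
Each point is a gene of 5 lists, with its log2 fold change of dM1/2 over control (horizontal axis, scale of log2(normalized reads + 1)) at P24 (left) and P28 (right). Filled points passed an adjusted p of 0.05 (limma, 3 against 3 libraries). The S-phase genes lie to the right of 0 at both ages, 19 of 20 filled, and the filled readers lie to the left.

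Of 8 genes that supply the methyl donor through folate and methionine, 1 rose and 2 fell at P24, and 2 rose and 1 fell at P28, with median log2 fold changes of 0.066 and -0.024. These counts lie near the shares of all genes, which were 14.8% and 20.0% higher and 11.8% and 15.6% lower, and are no result about the list. Shmt1, a hydroxymethyltransferase of the folate cycle, rose at both ages by 1.61 and 1.89 (adjusted p = 0.021 and 0.00408, limma). Mtrr, which reactivates methionine synthase, fell at both ages (-0.89 and -0.83, adjusted p = 0.00761 and 0.0112, limma). Ahcy, which removes the product of methylation reactions, fell at P24 (-0.65, adjusted p = 0.0471) and was at 0.04 on the log2 scale at P28 (adjusted p = 0.958), and Mtr, the synthase itself, rose at P28 (0.50, adjusted p = 0.0458, limma).

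Around the Tet enzymes, 2 of 13 genes of demethylation rose and 2 fell at P24, and 4 rose and 4 fell at P28. At P24 this is 15.4% in each direction, near the 14.8% higher and 11.8% lower of all genes, and at P28 it is 30.8% in each direction, against 20.0% and 15.6%. The base-excision glycosylases split, with Neil3 higher (log2 fold changes 1.28 and 1.32, adjusted p = 0.0195 and 0.0117) and Neil1 lower (-1.38 and -1.23, adjusted p = 0.00388 and 0.0435, limma). Neil2 fell at P28 (-1.87, adjusted p = 0.0115) from 30.3 ± 8.57 to 7.49 ± 1.91 normalized reads (SD, n = 3), and stood at -1.19 on the log2 scale at P24 (adjusted p = 0.173, limma). Idh2, a source of the ketoglutarate that Tet enzymes use, rose at both ages (0.82 and 1.42, adjusted p = 0.00908 and 0.00528, limma). Of the CXXC proteins tied to Tet2, Cxxc5 fell at P24 (-0.92, adjusted p = 0.00314) with -0.73 at P28 (adjusted p = 0.101), and Cxxc4 rose at P28 (1.81, adjusted p = 0.0424) with 1.01 at P24 (adjusted p = 0.0918, limma). At P20 and P60 none of the genes in these lists passed the threshold.

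Germ-line genes, whose promoters are methylated in somatic cells, were mostly near 0. Of 15 such genes, 11 did not exceed 16.6 normalized reads in any library, 3 could be tested at P24 and 4 at P28, and Asz1 had no read in any of the 24 libraries. Ddx4, an RNA helicase of germ cells, was the gene of this list that rose at P28. It had 6, 0 and 0 reads in the P28 controls and 286, 608 and 226 in dM1/2, which is 2.61, 0 and 0 against 122, 261 and 90.7 normalized reads (log2 fold change 6.55, adjusted p = 0.000836, limma). Ddx4 reached the mean of at least 10 needed for the test at P28 only through the dM1/2 libraries. Its call is therefore given as a description and not as support. A control without a read allows up to 3 reads (counting error only), and the size of the fold depends on the pseudocount.

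At P24 Ddx4 had 4, 2 and 1 reads in controls and 3, 71 and 61 in dM1/2, too few for the test, with P24 dM1/2 1 at the level of the controls. At P60 it had 5, 8 and 16 reads in controls and 2, 3 and 8 in dM1/2, so that it was not silent in every control. Brdt, a testis bromodomain gene, fell at P24 (log2 fold change -0.53, adjusted p = 0.047) and had 0.29 at P28 (adjusted p = 0.417, limma). Dazl, chosen after its values were seen, had 35, 33 and 24 reads in P24 controls and 8, 11 and 6 in dM1/2.

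**Figure D5:**
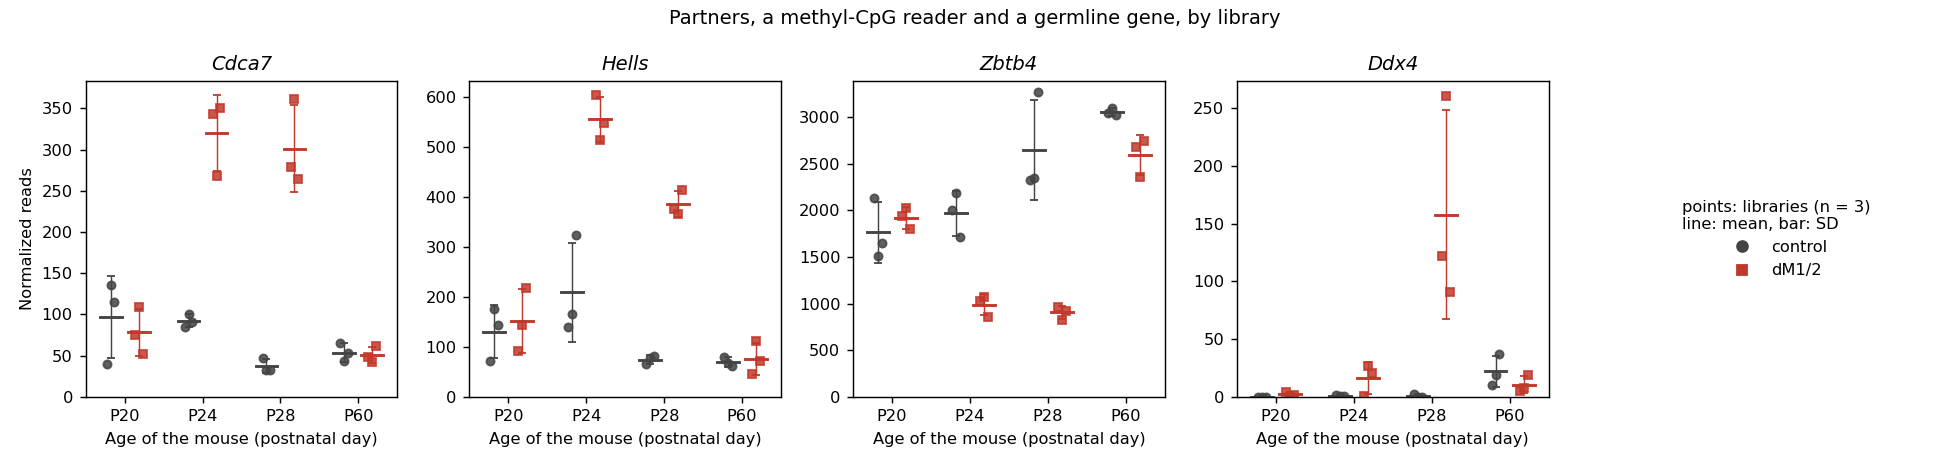
Normalized reads (linear axis from 0) of Cdca7, Hells, Zbtb4 and Ddx4 by age, for control (circles) and dM1/2 (squares), with the mean and SD of 3 libraries. At P28 all dM1/2 libraries are above the controls for Cdca7, Hells and Ddx4 and below them for Zbtb4.

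Markers of other cells were read beside these changes. The keratinocyte markers summed to 126 to 559 normalized reads in P24 controls and 92.2 to 149 in dM1/2, and to 127 to 276 and 122 to 207 at P28, with 1 of 6 tested genes lower at P24 and none called at P28. The DP markers summed to 292256 to 353963 in P24 controls and 146000 to 183387 in dM1/2, and to 143240 to 421715 and 114486 to 130153 at P28. Of the P28 controls, control 2 had the lowest DP sum (143240) and the highest dermal sheath sum (10825). The library labelled P28 control 3 had the highest DP sum (421715) and the lowest dermal sheath sum (6310). Of the 10 DP markers, 6 fell at P24, and 4 fell and 1 rose at P28. Dermal sheath markers fell in 2 of 6 genes at each age. Of the endothelial markers 1 of 5 rose and 1 fell at P24, of the immune markers 1 of 4 and of the Schwann markers 1 of 4 fell at P24, no melanocyte marker was called, and none of these 4 lists had a call at P28. Over all genes tested, 14.8% rose and 11.8% fell at P24, and 20.0% rose and 15.6% fell at P28. A count of 1 in such short lists cannot be set apart from these shares. Without the library labelled P28 control 3, 40.9% of all genes were called at P28, in either direction. The dermal sheath genes that fell there were 4 of 6, and 1 of 4 melanocyte and 1 of 4 Schwann markers fell, with 1 endothelial marker higher and 1 lower. The part of cell composition in the changes of the methylation genes was not tested.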

How the data were processed

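Sorted DP cells of 3 control and 3 dM1/2 mice at each of 4 ages gave 24 libraries, grouped as the labels give them. The authors depleted ribosomal RNA, made directional single-end libraries, used Trimmomatic for trimming, TopHat2 (version 2) for alignment to mm10, HTSeq for counting per Ensembl gene (GRCm38.p4) and DESeq2 for normalization. The deposited signal is thus a count scaled by a size factor. A median of ratios recomputed over the 24 libraries together equalled the deposited factors in 24 of 24 libraries (tolerance 0.001), and 1 recomputed within an age in none. The deposited log2 fold changes, scores and p-values of the authors' own comparisons were not used, nor were their other annotation columns. The value of 1 read, taken from the smallest step of each library, turned 100% of the values into whole reads (tolerance 0.001).

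Normalized reads were tested with limma 3.58.1 (R 4.3.3, trend, two-sided) on log2(normalized reads + 1), over genes with a mean of at least 10 in the libraries compared, adjusted by Benjamini-Hochberg over all genes tested, at a threshold of 0.05, in 11 comparisons. With 3 libraries against 3, the exact two-sided permutation test of a single gene cannot go below p = 0.1. Each limma p-value sets a difference against the spread between these mice, with the variance of a gene moderated by those of all genes tested. Controls could differ in Hdac genotype, which is part of that spread. Replicates differed by more than counting error in every pair (chi-square per gene 10.4 to 1485). Depth on genes was 8171944 to 49331751 reads per library, and intervals for counts at 0 cover counting error only.

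The 7 members and the gene lists were chosen with earlier results of these data known. All 7 members are named in each comparison, up to 4 genes of each list past the threshold with the largest absolute change at P24 or P28, and the 3 genes with the highest Pearson's r to each member. A few genes of these rules are not reported here, and the counts and medians of the reader and methyl donor lists were computed without them. Of the gene identifiers, 25431 of 25755 matched GENCODE M21. Alternative settings were a pseudocount of 10, no filter on low values, a replicate block, edgeR 4.0.16 with TMM and DESeq2 1.42.0 on the recovered reads, a single fit over the 24 libraries, each library left out in turn, and TMM scaling for the order of levels. Counts of list genes without the library labelled P28 control 3 were added after seeing the data. The limma step was tested on simulated data.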

Additional observations from a re-analysis of the deposited data

Results flagged for a closer look

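For 3 members the effect of genotype in anagen (P24 and P28) differed from that in telogen (P20 and P60) by a test of the difference itself, over 24 libraries with limma. The difference of the log2 fold changes was 2.37 for Uhrf1 (adjusted p = 0.00328), 0.78 for Dnmt1 (adjusted p = 0.000764) and -0.75 for Tet2 (adjusted p = 0.042). Uhrf1 was higher in every dM1/2 library than in every control library at P24, P28 and P60, and Dnmt1 at P24 and P28. For Tet2, 1 of 3 dM1/2 libraries at each anagen age reached into the range of the controls. Stage, sex and depth cannot be told apart in this difference, and at P60 the Hdac1 transcript of the dM1/2 libraries overlapped the controls (log2 fold change -0.25, adjusted p = 0.986, limma).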

How the results depend on the processing

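Of 1127 values recomputed under an alternative for the members, 1038 kept their direction and their side of the threshold. Dnmt1 and Uhrf1 were called at P24 and P28 under every alternative run, and no member was called at P20 or P60. The share of all genes called, given in brackets, moved with the setting too. From P24 to P28 in controls, 1 member was called (1.46%), 0 with a replicate block (0.193%) and 2 with DESeq2 (10.7%). A single fit over 24 libraries called 2 (9.22%), and each fit that left out a library called 0. In dM1/2 that comparison gave 0 (2.67%), 2 with DESeq2 (8.03%) and 0 to 1 without a single library. From P20 to P60 in controls 2 were called (12.6%), 1 with a replicate block (6.64%) and 0 to 2 without a single library. There edgeR called Tet1 as well (13.6%). In dM1/2 0 were called (6.32%), 1 with DESeq2 (13.0%), 1 in the single fit (15.3%) and 0 to 1 without a single library. For the difference between the effects at P28 and P24, DESeq2 called 1 (4.21%) where limma called 0 (0.707%). The cause was not tested.

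The labels do not say whether same-numbered libraries are paired mice. Those of an age correlated between -0.39 and 0.30. At P20 the values were 0.21, 0.06 and 0.12, and the highest with another number were -0.07, 0.07 and 0.02. At P60 they were 0.30, 0.03 and 0.15, against -0.09, 0.19 and 0.07. With a replicate block 439 genes were called at P20 instead of 60, so that a pairing in telogen was not settled. With the replicate block Uhrf1 was lost from P24 to P28 in controls (adjusted p = 0.0671, limma) and from P20 to P60 in controls (adjusted p = 0.0668, limma), and no other call of a member changed.

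Signs that changed belonged to values that did not pass. Tet3 from P20 to P60 in controls was at -0.00025 with edgeR. Without single libraries, log2 fold changes at P20 ranged from -0.95 to 0.54 for Uhrf1 and from -0.15 to 0.064 for Tet1, Dnmt3b ranged from -0.27 to 0.10 at P24, from -0.22 to 0.13 at P28 and from -0.23 to 0.38 at P60, and Tet2 from -0.23 to 0.23 at P60. Tet3 from P24 to P28 in dM1/2 ranged from -0.33 to 0.023. From P20 to P60 in controls Dnmt1 ranged from -0.17 to 0.039 and Tet3 from -0.11 to 0.17, and in dM1/2 Dnmt3b from -0.17 to 0.44, Tet2 from -0.21 to 0.25 and Tet3 from -0.042 to 0.19. The difference between P28 and P24 ranged from -0.14 to 0.26 for Dnmt3b, from -0.21 to 0.024 for Tet1 and from -0.22 to 0.29 for Tet2. Depth limits Uhrf1 at P60, where a library held as few as 8 reads, and Dnmt3b, with as few as 21.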
